A study of Mus musculus with 9 samples.

Results

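The collagen genes are described here over adult mouse auditory nerve tissue, cells cultured from it and neurospheres grown from those cells. A gene was counted as a collagen gene when its symbol was Col, a number, a and a number (Col1a1, for example) and when at least 1 probe set of the array named it and no other gene. Where several probe sets of a gene met this, the one with the highest mean over the 9 arrays stood for the gene. The rule found 42 collagen genes, measured by 82 probe sets, among 18193 genes in all. Col6a6 and Col28a1 were not analysed here.

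RNA of 3 samples of each kind had been hybridised to Affymetrix mouse expression arrays. All samples came from CBA/CaJ mice of both sexes, aged 8 to 12 weeks, and the mice had received no treatment before the nerves were taken. Tissue RNA was taken from nerves removed from the temporal bone. Cultured cells came from nerves dissociated with trypsin and DNase I and grown to confluency in 5 to 7 days on plates coated with poly-L-ornithine and fibronectin, in medium with 10% serum and B27. Neurospheres began as the same kind of culture and were then kept for 12 more days in serum-free medium with EGF at 20 ng/ml, FGF at 10 ng/ml and heparin at 2 µg/ml. No cell type was sorted before culture. Whether samples of one kind stem from different animals or culture dishes is not stated, so each p-value reflects only how far those samples scatter, and that scatter may be technical. In bulk RNA, fewer cells of a type and less RNA per cell cannot be told apart.

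Collagens are secreted or membrane-bound proteins whose chains wind into a triple helix, and the class of a chain is set by what the helix builds. Fibrillar collagens form the fibrils of the endoneurium and of bone and cartilage, type IV collagens form the sheet of the basement membrane around each Schwann cell and vessel, and FACIT collagens (fibril-associated collagens with interrupted triple helices) sit on the surface of fibrils. Type VI collagen forms beaded filaments near cell surfaces, and short chain, transmembrane, multiplexin and anchoring collagens make up the rest of the family. In the cochlea, types II, IX and XI are also known from the tectorial membrane, so that a gene named for cartilage need not come from cartilage in this organ.

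The labelled tissue carried nerve markers that were lower in both cultures. All 5 Schwann cell and myelin markers measured were lower in both cultures than in tissue, with a summed level (log2 of the summed linear signal) of 15.23 to 15.28 in nerve tissue, 11.22 to 11.46 in the cells and 10.80 to 10.97 in the spheres. Of 8 neuron markers, 8 were lower in cultured cells and 7 in neurospheres. Fibroblast markers summed to 13.80 to 13.99 in tissue, 13.61 to 13.83 in cultured cells and 14.88 to 14.97 in neurospheres, and 7 of 8 were higher in neurospheres than in tissue. By the same limits, 21.7% of all genes were higher and 21.0% lower in neurospheres than in tissue. In cultured cells against tissue these shares were 20.4% and 22.0%, and in neurospheres against cultured cells 9.0% and 8.91%. All marker counts in this report stand beside these shares. The 3′ minus 5′ signal of the actin control probe sets, a sign of RNA length, was 2.71 ± 0.345 for tissue, 0.360 ± 0.037 for cultured cells and 0.704 ± 0.148 for neurospheres (log2, SD, n = 3). Every comparison with tissue carries this difference, and its part in the collagen values was not tested.

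Most collagen genes differed between tissue and both cultures. A gene was called when limma's adjusted p was under 0.05 and the fold change over 1.5. In neurospheres against tissue 20 collagen genes were higher and 12 lower, 32 of 42 in all, where 42.7% of all genes were called, 21.7% as higher and 21.0% as lower. In cultured cells against tissue 20 were higher and 11 lower, 31 of 42, where 42.4% of all genes were called, 20.4% as higher and 22.0% as lower. Between the cultures 11 were higher in neurospheres and 10 lower, 21 of 42, where 17.9% of all genes were called, 9.0% as higher and 8.91% as lower. The median log2 difference of the 42 genes was 0.48, 0.39 and 0.04 in these comparisons, beside 0.05, -0.01 and 0.05 over all genes. The 2 comparisons with tissue share its 3 arrays, which by itself makes like calls in both more common.

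The calls of the 2 comparisons are set side by side as a description only. Genes higher than tissue in both cultures were Col1a2, Col2a1, Col3a1, Col5a1, Col5a2, Col11a1, Col4a1, Col4a2, Col4a5, Col16a1, Col6a1, Col6a3, Col8a1, Col18a1 and Col7a1. Genes lower than tissue in both were Col11a2, Col27a1, Col4a3, Col4a4, Col9a2, Col9a3, Col14a1, Col19a1 and Col13a1. Col15a1 was higher in neurospheres and lower in cultured cells, while Col24a1 and Col9a1 were the other way round. The genes that passed in none of the 3 comparisons were Col20a1, Col22a1, Col6a4, Col6a5, Col17a1 and Col25a1, 6 in all. The heat map of the family shows these blocks.

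**Figure D1:**
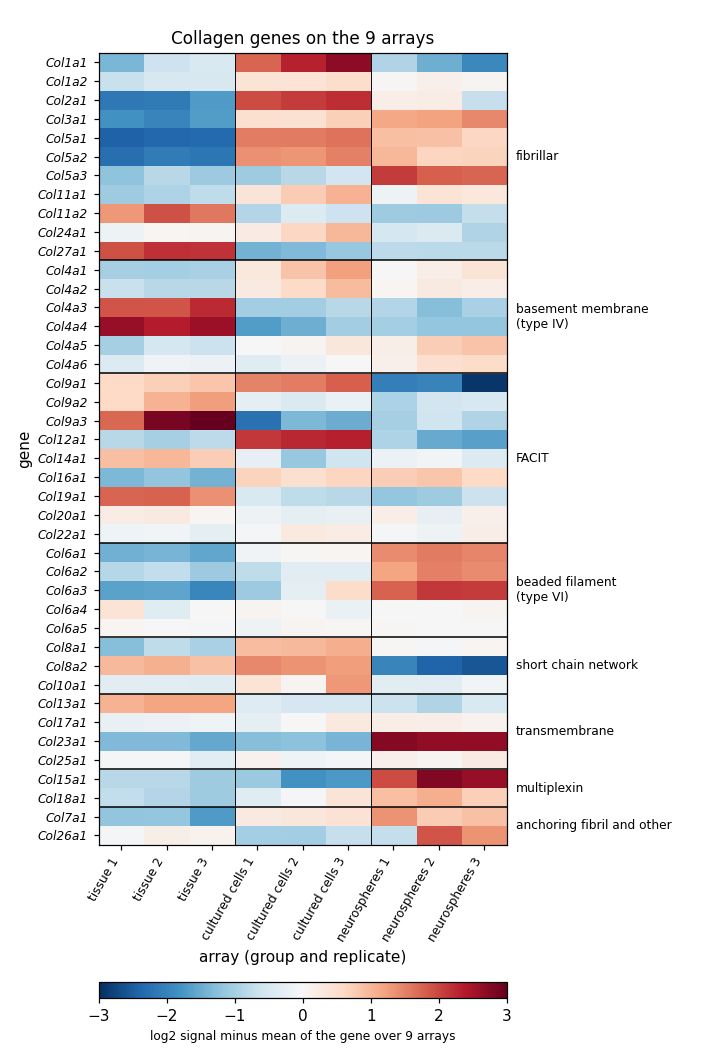
Signal of the 42 collagen genes on the 9 arrays, as log2 signal minus the gene's mean over the arrays (colour scale from -3 to 3), with genes in rows grouped by class and arrays in columns grouped by sample kind. Col5a1 and Col5a2 are blue in the tissue columns and red in both cultures, Col4a4 and Col9a3 are red in tissue, and Col23a1 and Col15a1 are red in the neurosphere columns.

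Sequence before the start of 4 members is shown for genes called in both directions in the neurosphere comparison. Col3a1 and Col6a1 were higher in neurospheres than in tissue by about 3 log2 units, Col1a2 was higher by 0.64, near the fold limit, and Col8a2 was lower. Each run is the 250 bases before the start, 5′ to 3′ on the gene's strand, from RefSeq on GRCm38.p6. Capitals mark, on either strand, CCAAT, the GC box written GGGCGG, the TATA box written TATAAA and the AP-1 site written TGANTCA.
Col1a2 (chr6:4505368-4505617, + strand): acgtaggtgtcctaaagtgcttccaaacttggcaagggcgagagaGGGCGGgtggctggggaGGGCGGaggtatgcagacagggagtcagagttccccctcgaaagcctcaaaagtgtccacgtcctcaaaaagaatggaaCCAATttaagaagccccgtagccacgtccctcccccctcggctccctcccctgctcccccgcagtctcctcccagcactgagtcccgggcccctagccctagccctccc
Col3a1 (chr1:45311288-45311537, + strand): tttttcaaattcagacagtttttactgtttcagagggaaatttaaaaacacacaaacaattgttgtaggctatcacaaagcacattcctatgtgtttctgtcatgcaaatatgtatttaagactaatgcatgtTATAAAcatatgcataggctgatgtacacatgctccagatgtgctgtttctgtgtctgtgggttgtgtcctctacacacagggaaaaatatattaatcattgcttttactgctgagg
Col6a1 (chr10:76726045-76726294, - strand): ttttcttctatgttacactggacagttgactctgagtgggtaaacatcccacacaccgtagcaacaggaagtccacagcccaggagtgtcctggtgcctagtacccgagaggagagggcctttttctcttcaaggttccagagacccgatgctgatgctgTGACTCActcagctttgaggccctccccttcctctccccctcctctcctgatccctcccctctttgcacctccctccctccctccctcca
Col8a2 (chr4:126286544-126286793, + strand): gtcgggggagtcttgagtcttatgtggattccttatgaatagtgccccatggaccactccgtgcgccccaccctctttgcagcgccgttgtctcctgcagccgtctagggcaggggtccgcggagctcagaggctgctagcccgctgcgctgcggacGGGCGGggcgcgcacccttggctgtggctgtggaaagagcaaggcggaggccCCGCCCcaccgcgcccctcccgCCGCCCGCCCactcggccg

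Col1a2 holds 1 CCAAT and 2 GC boxes, Col3a1 holds 1 TATAAA, Col6a1 holds 1 TGANTCA, and Col8a2 holds 4 GC boxes of which 2 overlap. A window of 250 bases before to 50 after the start was searched in the 33 members that had an entry. GGGCGG stood in 21 of them (63.6%), where 35.9% of all 27025 promoters hold it. CCAAT stood in 12 (36.4%, against 37.9% of all promoters), TATAAA in 5 (15.2%, against 14.2%) and TGANTCA in 1 (3.03%, against 7.93%). These are matches of letters and describe the windows only.

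The fibrillar class, the largest of the family, held more of the gains by count than any other class. By share, other classes had as many in neurospheres. There 4 of 6 type IV, 3 of 5 type VI and 2 of 2 multiplexin genes were higher than in tissue. In cultured cells these were 3 of 6, 2 of 5 and 1 of 2. Of all genes, 21.7% and 20.4% were higher in these comparisons. Of its 11 genes, 7 were higher and 3 lower in neurospheres than in tissue, and 8 were higher and 2 lower in cultured cells, with a median log2 difference of 1.11 and 1.65. Between the cultures, 2 were higher in neurospheres, 5 were lower and 4 did not pass, with a median of -0.54. The genes differed in which culture stood highest.

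Col1a1 and Col1a2 encode the chains of type I collagen, the main fibril of bone, skin and nerve sheath. Col1a1 signal was 7.59, 8.35 and 8.5 (log2) in tissue, 10.70, 11.28 and 11.65 in cultured cells and 8.05, 7.5 and 7.02 in neurospheres. Its cultured cell arrays stood above all others, while tissue and neurospheres overlapped. Col1a1 was 8.34-fold higher in cultured cells than in tissue (log2 3.06, SE 0.272, limma adjusted p = 5.43e-06) and 12.9-fold lower in neurospheres than in cultured cells (log2 -3.69, SE 0.294, adjusted p = 3.82e-05). Against tissue its neurosphere difference was -0.63 (SE 0.294, adjusted p = 0.0937), and without neurosphere replicate 1 or without tissue replicate 1 it passed at -0.89 and -0.91. A dimmer probe set of Col1a1 gave -0.06 there (limma adjusted p = 0.878). That probe set gave 3.59 in cultured cells against tissue and -3.65 between the cultures. Col1a2 read 12.78, 12.97 and 12.96 in tissue, 13.86, 13.86 and 13.98 in cultured cells and 13.49, 13.60 and 13.53 in neurospheres. No array of one group overlapped another, and its differences from tissue were 1.0 (SE 0.0896, adjusted p = 5.85e-06) in cultured cells and 0.64 (SE 0.0911, adjusted p = 2.64e-04) in neurospheres. The neurosphere call of Col1a2 lies near the fold limit and was lost without tissue replicate 1 (0.58). One of its other probe sets gave 2.18 and 1.35, and the other gave 0.67 and -0.07, the last without a call.

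At the probe sets used, the pair of type I chains moved by unequal amounts. The log2 ratio of Col1a1 to Col1a2 within an array was lower by 3.33 in neurospheres than in cultured cells (change of -3.33, SE 0.396). It was higher by 2.06 (SE 0.330) in cultured cells than in tissue. With 3 against 3 arrays the smallest 2-sided p of an exact permutation test is 0.1, and both changes stood at it. Such ratios were taken for 12 pairs of chains in 3 comparisons, so no adjusted p can pass. The size of the type I ratio depends on the probe set. The Col1a2 probe set used ranked 136, 12 and 40 by signal among 18193 genes in tissue, cultured cells and neurospheres. It gave 1.0 in cultured cells against tissue and -0.36 between the cultures. The other probe sets of Col1a2 gave 2.18 and 0.67, and -0.82 and -0.74. Ratios with them were not taken.

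Col3a1, the chain of type III collagen found with type I in soft tissue and vessel walls, stood highest in neurospheres. Its signal was 10.96, 10.81 and 11.12 in tissue, 13.26, 13.25 and 13.49 in cultured cells and 13.95, 14 and 14.23 in neurospheres. The 3 groups lie in separate steps. It was 8.56-fold higher in neurospheres than in tissue (log2 3.10, SE 0.116, adjusted p = 5.36e-08) and 1.65-fold higher than in cultured cells (log2 0.73, SE 0.110, adjusted p = 0.00124). A second, dimmer probe set of Col3a1 gave larger differences in the same direction, 5.01 against tissue and 1.60 between the cultures.

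Col2a1, the type II chain of cartilage and of the tectorial membrane, had the largest gain among the 42 genes in cultured cells at the probe sets used. It read 9.07, 9.10 and 9.52 in tissue, 13.18, 13.32 and 13.44 in cultured cells and 11.42, 11.44 and 10.53 in neurospheres. No groups overlapped, although neurosphere replicate 3 lay below the other two. The difference from tissue was 4.08 in cultured cells (16.9-fold, SE 0.132, adjusted p = 4.33e-09) and 1.90 in neurospheres (SE 0.242, adjusted p = 1.34e-04), and neurospheres stood 2.19 below cultured cells (log2 difference -2.19, SE 0.228, adjusted p = 1.64e-04). Beside this, markers of chondrocytes summed to 12.55 to 12.82 in tissue, 9.08 to 9.20 in cultured cells and 9.66 to 9.90 in neurospheres. Of those 8 markers, 4 were lower and 1 higher in each culture than in tissue. Acan, the large cartilage proteoglycan, had differences of -3.42 in cultured cells and -4.55 in neurospheres, and Cnmd of -6.84 and -7.31, both at a mean of at most 6.08 in either culture.

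The type V chains, which help set the width of type I fibrils, rose in both cultures with 1 exception. Col5a1 read 7.82, 7.89 and 7.93 in tissue, 11.78, 11.80 and 11.89 in cultured cells and 11.15, 11.13 and 10.88 in neurospheres. Every culture array stood far above every tissue array, and its differences from tissue were 3.94 (SE 0.0806, adjusted p = 2.88e-10) and 3.17 (SE 0.1, adjusted p = 1.98e-08). Col5a2 read 9.35, 9.51 and 9.43 in tissue, 12.98, 12.92 and 13.11 in cultured cells and 12.61, 12.25 and 12.28 in neurospheres. It was 3.57 higher in cultured cells (SE 0.0886, adjusted p = 8.89e-10) and 2.95 higher in neurospheres (SE 0.116, adjusted p = 7.24e-08). Between the cultures it passed at -0.62, a call lost without neurosphere replicate 2 (-0.55), neurosphere replicate 3 or cultured cell replicate 3 (both -0.57).

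Col5a3, the third chain of that type, rose in neurospheres and not in cultured cells. Its mean was 6.83 ± 0.190 over the tissue arrays, 7.05 ± 0.247 over the cultured cells and 9.76 ± 0.194 over the neurospheres (SD, n = 3). The difference between neurospheres and cultured cells was 2.7 (6.52-fold, SE 0.147, adjusted p = 5.50e-06), while cultured cells and tissue differed by 0.22 (SE 0.141, adjusted p = 0.209). Its log2 ratio to Col5a1 changed by 3.48 (SE 0.141) between the cultures. A second probe set of Col5a3 lay between 3.14 and 3.35 in all groups and passed nowhere.

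The type XI chains, minor partners of type II fibrils, went opposite ways. Col11a1 read 9.98, 10.13 and 10.28 in tissue, 11.43, 11.80 and 12.10 in cultured cells and 10.90, 11.45 and 11.36 in neurospheres, so that both cultures lay above tissue and overlapped each other. Its differences from tissue were 1.65 (SE 0.160, adjusted p = 1.04e-05) and 1.11 (SE 0.152, adjusted p = 2.09e-04), and a dimmer probe set gave 3.52 and 2.92. Col11a2 had means of 8.16, 5.92 and 5.6 for tissue, cultured cells and neurospheres, differences from tissue of -2.24 and -2.56 that both passed.

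Col27a1, a fibrillar chain of developing cartilage, fell by more than any other fibrillar gene. Tissue had a mean of 11.41 ± 0.154, cultured cells of 8.02 ± 0.146 and neurospheres of 8.51 ± 0.0151. The differences were -3.39 (SE 0.111, adjusted p = 4.52e-09) and -2.90 (SE 0.0988, adjusted p = 3.07e-08), with no overlap. Col24a1 differed from tissue by 0.62 in cultured cells and by -0.62 in neurospheres. Both of those calls sit near the fold limit and were lost without 1 array: in cultured cells without cultured cell replicate 3 (0.44) or tissue replicate 1 (0.55), in neurospheres without neurosphere replicate 3 (-0.48) or tissue replicate 3 (-0.58).

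**Figure D2:**
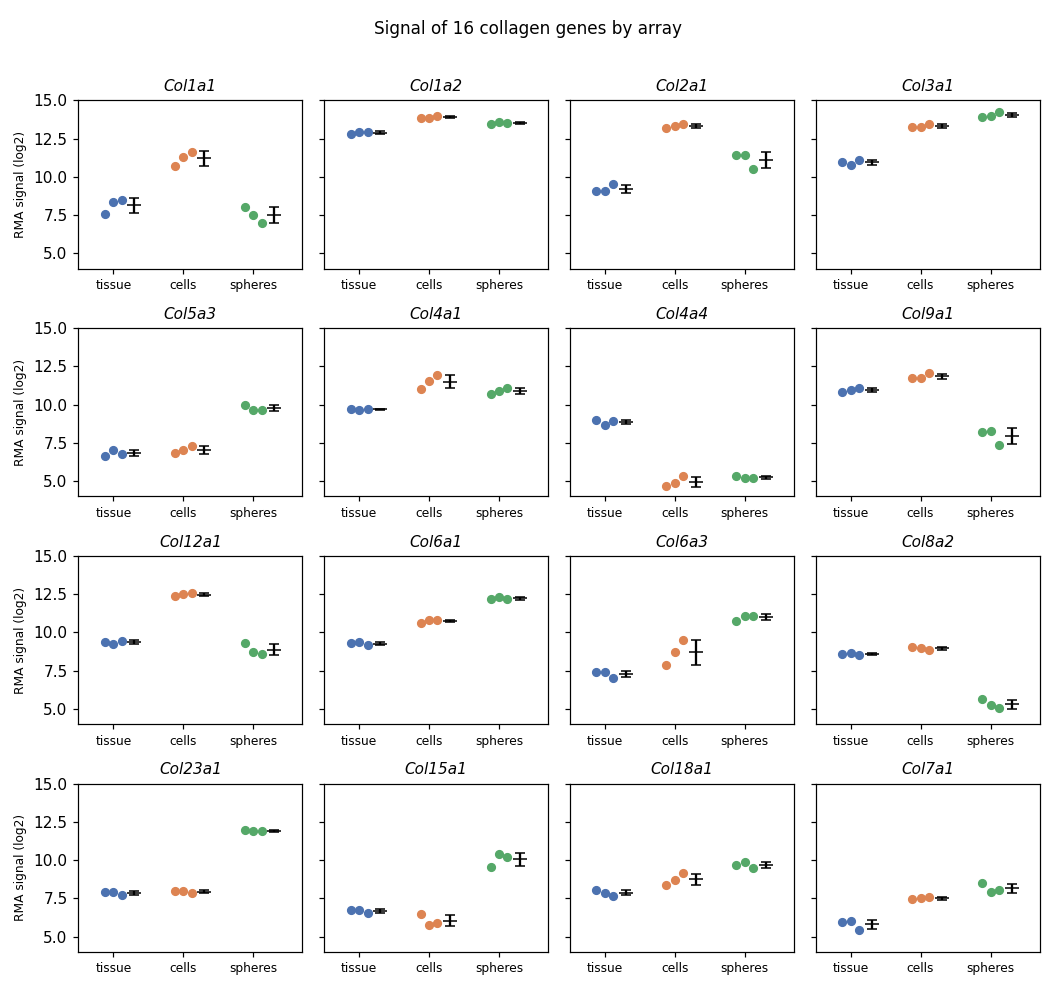
Log2 RMA signal of 16 collagen genes on each array (points) by sample kind, with the group mean and SD as black bars (n = 3), on 1 common vertical axis. Col2a1, Col1a1 and Col12a1 stand highest in cultured cells, Col3a1, Col6a1, Col6a3, Col23a1 and Col15a1 stand highest in neurospheres, and Col4a4 stands highest in tissue.

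The 6 type IV genes lie in 3 head-to-head pairs, each pair read outward from a shared stretch of DNA. Their chains join in fixed sets, with the Col4a1 and Col4a2 chains in nearly every basement membrane and the Col4a3 and Col4a4 chains in special ones such as those of the kidney and cochlea. The stretches are shown because 2 of the pairs moved as pairs and in opposite directions. Both runs are on the + strand of GRCm38.p6, from RefSeq. The capitals of the first mark the 22 bases where the starts of both genes overlap in the promoter table. The second lies between the Col4a4 start of its promoter entry and the Col4a3 start of its RefSeq gene span. Col4a3 had no promoter entry. By gene span Col4a4 reaches 82587034, past the Col4a3 start at 82586921, so the spans overlap and leave no bases between them.
Col4a1 and Col4a2 (chr8:11312801-11312830): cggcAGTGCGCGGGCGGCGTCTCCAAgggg
Col4a3 and Col4a4 (chr1:82586850-82586920, the 71 bases between the starts): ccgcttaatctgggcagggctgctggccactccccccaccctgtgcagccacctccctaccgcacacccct

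The Col4a1 and Col4a2 pair rose in both cultures. Col4a1 read 9.70, 9.68 and 9.73 in tissue, 11.03, 11.57 and 11.93 in cultured cells and 10.70, 10.90 and 11.11 in neurospheres. Col4a2 read 8.61, 8.45 and 8.45 in tissue, 9.55, 9.85 and 10.22 in cultured cells and 9.34, 9.54 and 9.48 in neurospheres. For both genes every culture array lay above every tissue array. Col4a1 differed from tissue by 1.81 (3.50-fold, SE 0.189, adjusted p = 1.77e-05) in cultured cells and 1.20 (2.30-fold, SE 0.113, adjusted p = 1.80e-05) in neurospheres, and Col4a2 by 1.37 (SE 0.152, adjusted p = 2.86e-05) and 0.95 (SE 0.0958, adjusted p = 2.94e-05). The other probe set of Col4a1 gave 1.03 in cultured cells, with a call, and 0.56 in neurospheres, without one. The log2 ratio of Col4a1 to Col4a2 within an array moved by 0.44 and 0.25. Endothelial cells also make these chains, and their markers summed to 11.51 to 11.57 in tissue, 12.17 to 12.37 in cultured cells and 11.91 to 12.49 in neurospheres. Of 8 such markers, 1 was higher and 4 lower in cultured cells, and 2 higher and 5 lower in neurospheres, and their part in the result was not tested.

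The Col4a3 and Col4a4 pair fell in both. Col4a3 read 8.02, 8.02 and 8.36 in tissue, 5.08, 5.09 and 5.29 in cultured cells and 5.25, 4.85 and 5.14 in neurospheres. Col4a4 read 8.97, 8.7 and 8.93 in tissue, 4.67, 4.88 and 5.32 in cultured cells and 5.34, 5.19 and 5.19 in neurospheres. All tissue arrays lay above all culture arrays, and the cultures overlapped. Col4a4 was 15-fold lower in cultured cells (log2 -3.90, SE 0.158, adjusted p = 1.89e-08) and 12.3-fold lower in neurospheres (log2 -3.62, SE 0.102, adjusted p = 1.07e-08), and Col4a3 was 7.89-fold and 8.31-fold lower. Beside them, 5 of 7 markers of cochlear epithelium and lateral wall were lower and 1 higher in each culture, with summed levels of 14.98 to 15.08 in tissue, 12.66 to 12.84 in cultured cells and 11.48 to 11.82 in neurospheres, and their part was not tested.

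The third pair, Col4a5 and Col4a6, lies on the X chromosome with 1342 bases between its starts. Col4a5 rose by 0.86 (SE 0.141, adjusted p = 4.22e-04) in cultured cells and by 1.32 (SE 0.191, adjusted p = 2.98e-04) in neurospheres. Col4a6 differed from tissue by 0.04 in cultured cells (SE 0.118, adjusted p = 0.775). In neurospheres it was 0.62 higher (SE 0.135, adjusted p = 0.00327), a call lost without neurosphere replicate 2 (0.57), neurosphere replicate 3 (0.55) or tissue replicate 1 (0.53). Xist, the RNA of the inactive X chromosome in female cells, read 12.04, 6.25 and 11.61 in tissue, 12.73, 12.69 and 12.80 in cultured cells and 5.85, 12.80 and 8.97 in neurospheres, so that sex was not balanced over these arrays. Between neurospheres and cultured cells, 0 of the 6 type IV genes passed by limma, where 17.9% of all genes were called. At an unadjusted p under 0.05, 4 of the 6 stood under that limit, 1 of them past the fold limit as well. Col4a1 (-0.61) passed there with all 9 arrays in 1 fit, with the replicate block and without cultured cell replicate 1 (-0.85). In the other direction, Col4a5 (0.45) passed without neurosphere replicate 1 (0.66). Col4a6 (0.58) passed after quantile normalisation (0.62) and without neurosphere replicate 1 (0.71), cultured cell replicate 2 (0.59) or cultured cell replicate 3 (0.66).

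Of the 9 FACIT genes, 1 was higher and 5 were lower in neurospheres than in tissue (median -1.10), out of 12 collagen genes lower there. In cultured cells 3 were higher and 4 lower (median -0.40). The shares of all genes were 21.7% higher and 21.0% lower in neurospheres, and 20.4% and 22.0% in cultured cells. The 3 chains of type IX, which bind to type II fibrils, did not move together. Col9a1 read 10.84, 10.96 and 11.07 in tissue, 11.72, 11.77 and 12.04 in cultured cells and 8.20, 8.25 and 7.33 in neurospheres. The 3 groups were separate, with neurospheres lowest: 8.18-fold below tissue (log2 -3.03, SE 0.225, adjusted p = 3.94e-06) and 15.1-fold below cultured cells (log2 -3.92, SE 0.232, adjusted p = 8.7e-06). In cultured cells it was 0.89 above tissue (SE 0.109, adjusted p = 5.84e-05). A second probe set of Col9a1 kept the difference between the cultures (-2.41) but gave -0.48 for neurospheres against tissue, without a call.

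Col9a3 read 9.25, 10.38 and 10.55 in tissue, 5.30, 6.18 and 6.06 in cultured cells and 6.55, 6.94 and 6.63 in neurospheres. Tissue was highest throughout, although its replicate 1 lay more than 1 log2 unit below the other two. Col9a3 was lower by 4.21 in cultured cells (log2 difference -4.21, 18.6-fold, SE 0.334, adjusted p = 2.34e-06) and by 3.35 in neurospheres (-3.35, 10.2-fold, SE 0.303, adjusted p = 1.42e-05). Between the cultures it passed at 0.86 (SE 0.222, adjusted p = 0.0172), a call lost without neurosphere replicate 2 (0.75). Col9a2 also fell in both, with differences from tissue of -1.26 and -1.62. The log2 ratio of Col9a1 to Col9a3 changed by 5.10 (SE 0.417) in cultured cells against tissue and by 0.32 (SE 0.442) in neurospheres against tissue, with exact permutation p of 0.1 and 0.5.

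Col12a1, whose product sits on type I fibrils in tendon, fascia and nerve sheath, stood highest in cultured cells. It read 9.40, 9.23 and 9.45 in tissue, 12.35, 12.48 and 12.56 in cultured cells and 9.30, 8.71 and 8.59 in neurospheres. Cultured cells stood 8.59-fold above tissue (log2 3.10, SE 0.0961, adjusted p = 3.31e-09) and 12.1-fold above neurospheres (log2 -3.60 for neurospheres minus cultured cells, SE 0.177, adjusted p = 3.59e-06). Neurospheres and tissue overlapped, with a difference of -0.50 under the fold limit (adjusted p = 0.0368). Without neurosphere replicate 1 that difference was -0.71 and passed. A dimmer probe set of Col12a1 gave 0.56 there, the opposite sign, also without a call. It kept the other differences, at 3.79 in cultured cells against tissue and -3.23 between the cultures. The remaining probe sets were dim and passed nowhere.

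Col1a1, Col12a1 and Col10a1 were higher in cultured cells than in tissue and than in neurospheres, and did not pass between neurospheres and tissue. Markers of smooth muscle and bone did not share 1 pattern. Acta2, smooth muscle actin, differed from tissue by 1.44 in cultured cells and -3.49 in neurospheres, Cnn1, calponin, by 3.23 and -0.01, and Myh11, smooth muscle myosin, by -2.21 and -2.14. Ibsp, a bone matrix protein, was 1.58 above tissue in cultured cells and stood at -3.68 in neurospheres against cultured cells, whereas Dmp1, of osteocytes, had -0.75 and 2.36. The whole list of 8 pericyte and smooth muscle markers summed to 12.93 to 13.30 in tissue, 13.60 to 13.97 in cultured cells and 12.96 to 13.13 in neurospheres. Of these, 3 were higher and 4 lower in cultured cells than in tissue. The 6 osteoblast and osteocyte markers summed to 12.50 to 12.97, 12.05 to 12.58 and 13.83 to 13.95 in the same order, with 1 higher and 4 lower in cultured cells. The part of either list in the collagen values was not tested.

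Among the other FACIT genes, Col16a1 rose by 1.91 in cultured cells and 2.04 in neurospheres, and Col14a1 had differences of -1.54 and -1.10. Col19a1 read 7.19, 7.22 and 6.82 in tissue, 4.98, 4.68 and 4.61 in cultured cells and 4.27, 4.38 and 4.80 in neurospheres, and its differences were -2.32 (SE 0.135, adjusted p = 2.56e-07) and -2.59 (SE 0.162, adjusted p = 1.28e-06). Both Col19a1 cultures lay at low signal. Col20a1 and Col22a1 were dim and passed nowhere at the probe sets used, but other probe sets of both genes were called. One of Col20a1 gave -0.85 in cultured cells and -0.72 in neurospheres against tissue. Of Col22a1, 2 gave 1.23 and 1.52 in cultured cells against tissue and -1.16 and -2.27 between the cultures, and the second of these also gave -0.75 in neurospheres against tissue.

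Type VI collagen stood highest in neurospheres. Of 5 genes measured, 3 were higher in neurospheres than in tissue (median 2.25) and than in cultured cells (median 1.48), and the other two, Col6a4 and Col6a5, had group means from 4.86 to 4.92 and from 3.10 to 3.13 without a call. Col6a1 read 9.29, 9.34 and 9.17 in tissue, 10.64, 10.78 and 10.79 in cultured cells and 12.15, 12.30 and 12.20 in neurospheres. Col6a2 read 9.97, 10.1 and 9.74, then 10.06, 10.50 and 10.49, then 12.01, 12.33 and 12.24 in the same order. Col6a3 read 7.38, 7.39 and 7.02 in tissue, 7.89, 8.69 and 9.52 in cultured cells and 10.75, 11.10 and 11.07 in neurospheres. For all 3 genes each neurosphere array lay above all 6 others, and the Col6a3 cultured cell arrays were spread over more than 1.5 log2 units.

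In neurospheres against tissue, Col6a3 was 13.0-fold higher (log2 3.70, SE 0.138, adjusted p = 5.33e-08), Col6a1 7.73-fold (log2 2.95, SE 0.0907, adjusted p = 1.73e-08) and Col6a2 4.76-fold (log2 2.25, SE 0.125, adjusted p = 6.03e-07). Against cultured cells the same genes were 4.83-fold, 2.79-fold and 3.58-fold higher. In cultured cells Col6a1 was 1.47 above tissue (SE 0.0884) and Col6a3 1.43 (SE 0.331, adjusted p = 0.00373), while Col6a2 differed by 0.41, under the fold limit. Col6a1 and Col6a2 both lie on chromosome 10. Beside these gains stands the fibroblast list. Of its 8 members, 7 were higher and 0 lower in neurospheres than in tissue, and 2 were higher and 2 lower in cultured cells. Between the cultures 4 were higher in neurospheres and 1 lower. Lum was 2.5 above tissue in neurospheres and 0.09 in cultured cells, and Dcn 0.68 and -1.09. Fbln2 had the other order, at 1.48 and 2.47. The part of this list in the result was not tested.

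The short chain genes Col8a1 and Col8a2 encode the chains of type VIII collagen, known from vessel walls and the cornea, and they parted in neurospheres. Col8a1 read 10.59, 11.11 and 10.89 in tissue, 12.79, 12.83 and 12.95 in cultured cells and 11.90, 11.83 and 11.93 in neurospheres. Col8a2 read 8.60, 8.68 and 8.51 in tissue, 9.06, 8.97 and 8.87 in cultured cells and 5.64, 5.23 and 5.06 in neurospheres. Col8a1 was above tissue in both cultures, whereas Col8a2 dropped below both other groups in neurospheres alone. Col8a2 was 9.73-fold lower in neurospheres than in tissue (log2 -3.28, SE 0.146, adjusted p = 1.51e-07) and 12.6-fold lower than in cultured cells (log2 -3.65, SE 0.146, adjusted p = 1.50e-06). Col8a1 rose by 2.00 (SE 0.129) in cultured cells and 1.03 (SE 0.131) in neurospheres, and 2 other probe sets gave 3.41 and 4.90 in cultured cells and 1.99 and 3.10 in neurospheres. The log2 ratio of Col8a1 to Col8a2 changed by 4.31 (SE 0.226) between tissue and neurospheres.

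Col10a1, the type X chain of hypertrophic cartilage, read 5.12, 5.12 and 5.09 in tissue, 5.85, 5.54 and 6.74 in cultured cells and 5.11, 5.12 and 5.36 in neurospheres. The cultured cell arrays were highest, with replicate 3 apart from the others. Its difference was 0.93 in cultured cells against tissue (SE 0.249, adjusted p = 0.00831). The call between neurospheres and cultured cells (-0.84, SE 0.268, adjusted p = 0.0403) was lost without any single neurosphere array and without cultured cell replicate 1 or 3, where the difference ranged from -0.94 to -0.50.

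Col23a1, a transmembrane collagen that can be shed from the cell, showed the largest gain among the 42 genes in neurospheres at the probe sets used. It read 7.90, 7.90 and 7.69 in tissue, 7.95, 8.00 and 7.83 in cultured cells and 11.99, 11.89 and 11.89 in neurospheres. Tissue and cultured cells overlapped, and each neurosphere array stood nearly 4 units above them. It was 17.1-fold higher in neurospheres than in tissue (log2 4.09, SE 0.0934, adjusted p = 3.77e-09) and 16-fold higher than in cultured cells (log2 4.0, SE 0.0831, adjusted p = 1.68e-07). All 3 probe sets of Col23a1 gave the gain over tissue, at 3.80, 3.87 and 4.09. The gene lies on chromosome 11 at chr11:51289679-51583925 of GRCm38.p6.

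The other transmembrane collagens did not share it. Col13a1, found at neuromuscular and other cell junctions, read 7.00, 7.14 and 7.14 in tissue, 5.56, 5.45 and 5.43 in cultured cells and 5.32, 5.05 and 5.49 in neurospheres, with differences of -1.61 (SE 0.0860) and -1.81 (SE 0.122) that both passed. Col17a1, the hemidesmosome collagen of skin, had means between 3.27 and 3.61 and passed nowhere. Col25a1, a neuronal collagen, passed nowhere at its brightest probe set, with 0.13 in cultured cells against tissue. Its second probe set gave -2.31 there, with a call.

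The multiplexins Col15a1 and Col18a1 lie in the outer zone of basement membranes, and the end of the Col18a1 chain is known as endostatin. Col15a1 read 6.76, 6.76 and 6.53 in tissue, 6.48, 5.78 and 5.87 in cultured cells and 9.56, 10.38 and 10.21 in neurospheres. Col18a1 read 8.02, 7.87 and 7.68 in tissue, 8.38, 8.68 and 9.14 in cultured cells and 9.65, 9.85 and 9.47 in neurospheres. Both were highest in neurospheres with no overlap. Col15a1 was 10.3-fold above tissue (log2 3.37, SE 0.196, adjusted p = 8.21e-07) and 16.1-fold above cultured cells (log2 4.01, SE 0.244, adjusted p = 1.01e-05), and Col18a1 3.48-fold above tissue (log2 1.80, SE 0.126, adjusted p = 2.72e-06). In cultured cells Col18a1 was 0.88 above tissue (SE 0.177, adjusted p = 0.00160). Col15a1 differed there by -0.64 (SE 0.172, adjusted p = 0.00881), a call lost without cultured cell replicate 2 (-0.51) or 3 (-0.55).

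Col7a1, the chain of anchoring fibrils under epithelia, read 5.96, 5.99 and 5.44 in tissue, 7.42, 7.49 and 7.59 in cultured cells and 8.49, 7.90 and 8.03 in neurospheres. It stepped up from tissue to cultured cells to neurospheres, with differences from tissue of 1.70 (SE 0.143, adjusted p = 3.60e-06) and 2.35 (SE 0.191, adjusted p = 7.21e-06). The step between the cultures, 0.64 (SE 0.149, adjusted p = 0.0107), was 0.47 and under the fold limit without neurosphere replicate 1. Col26a1 read 5.17, 5.38 and 5.31 in tissue, 4.20, 4.17 and 4.52 in cultured cells and 4.49, 7.10 and 6.55 in neurospheres. Its neurosphere arrays were far apart: replicate 1 lay within the cultured cell range and the other two above tissue. The difference from tissue there was 0.76 (SE 0.557, adjusted p = 0.271), and 1.54 with a call when replicate 1 was left out. Its call between the cultures (1.75, SE 0.568, adjusted p = 0.0444) was lost without neurosphere replicate 2 or 3 or any single cultured cell array (1.22 to 1.86).

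**Figure D3:**
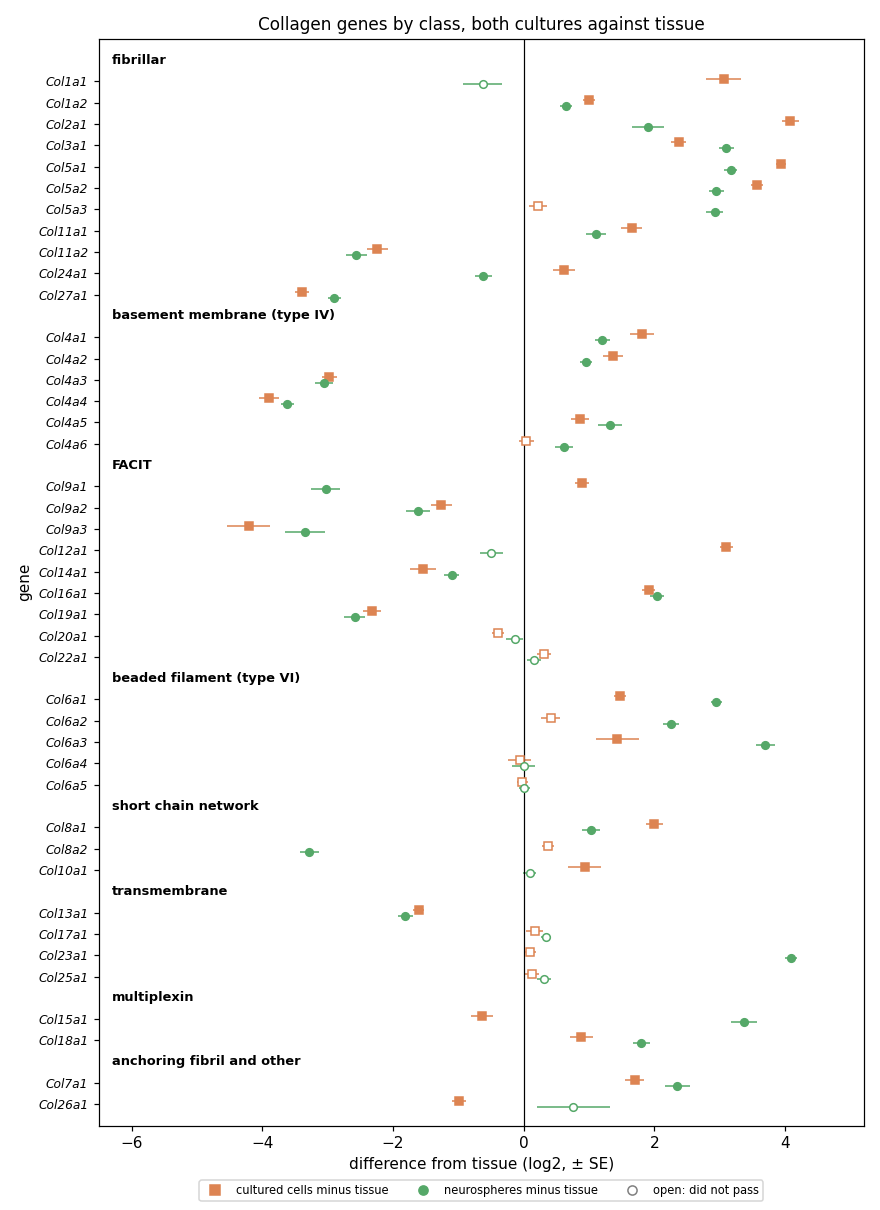
Log2 difference from tissue (horizontal axis, ± SE of the limma fit) for the 42 collagen genes by class, with cultured cells as squares, neurospheres as circles and open symbols where the gene did not pass. Col4a1 and Col4a2 lie to the right and Col4a3 and Col4a4 to the left in both cultures, whereas the squares and circles of Col1a1, Col9a1, Col12a1, Col8a2, Col23a1 and Col15a1 lie far apart.

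Many collagen genes that fell ended at low signal. In all, 13 of the 42 had a mean over the 9 arrays under 6.48, the level under which 40% of genes lie, among them Col4a3, Col4a4, Col9a2, Col13a1 and Col19a1. A difference that ends near the background is compressed on this scale. Of the 13, 6 were called in neurospheres against tissue, 7 in cultured cells against tissue and 2 between the cultures. Of all genes, dim or not, 42.7%, 42.4% and 17.9% were called. The share among equally dim genes was not taken. No collagen gene had probe sets called in opposite directions in the same comparison.

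Before collagen leaves the cell its chains are hydroxylated, given sugars, folded and moved out in large carriers, and proteases then remove the ends so that fibrils can form. Of 44 genes listed for these steps and for collagen receptors, 40 were measured. In neurospheres 23 were higher and 7 lower than in tissue (median 0.90), in cultured cells 24 and 6 (median 1.08), and between the cultures 7 and 7 (median 0.15), against the shares of all genes given above.

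Genes for chain modification and folding carried most of this, with 14 of 18 higher in neurospheres and 15 of 18 in cultured cells. Plod2, the lysyl hydroxylase of the chain ends, read 8.97, 8.96 and 9.18 in tissue, 13.07, 12.84 and 12.95 in cultured cells and 12.28, 11.91 and 11.84 in neurospheres. Every culture array lay well above tissue, and Plod2 rose 15.1-fold in cultured cells (log2 3.91, SE 0.0990, adjusted p = 9.71e-10) and 7.84-fold in neurospheres (log2 2.97, SE 0.131, adjusted p = 1.46e-07). P3h3, of the prolyl 3-hydroxylase family, rose by 2.59 and 3.31, and P4ha2, a catalytic subunit of prolyl 4-hydroxylase, by 3.54 and 1.89. P4ha3, another such subunit, rose by 1.91 in cultured cells and differed by 0.22 in neurospheres (adjusted p = 0.179). Between the cultures P4ha3, P4ha2 and Plod2 were lower in neurospheres (-1.69, -1.65 and -0.94), whereas P3h3, Fkbp14 and Plod3 were higher (0.72, 0.70 and 0.69).

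Colgalt2, a collagen galactosyltransferase, went against this list. It read 10.78, 10.57 and 10.64 in tissue, 6.36, 6.22 and 6.39 in cultured cells and 6.14, 6.93 and 6.77 in neurospheres. Tissue lay far above both cultures, by 4.34 (log2 difference -4.34, SE 0.0921, adjusted p = 3.59e-10) and 4.05 (-4.05, SE 0.188, adjusted p = 1.93e-07). Its relative Colgalt1 rose by 1.36 and 1.88.

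In the secretion and cleavage list, 4 of 12 genes were higher and 2 lower than tissue in each culture. These 6 calls are 50% of the list, near the 42.7% (neurospheres) and 42.4% (cultured cells) of all genes called. Bmp1, the protease that removes the C-terminal ends of fibrillar procollagens, was highest in neurospheres. It read 8.25, 8.34 and 8.16 in tissue, 9.71, 9.68 and 9.87 in cultured cells and 11.70, 11.98 and 11.71 in neurospheres, 3 separate groups with differences from tissue of 1.5 (SE 0.0916) and 3.54 (SE 0.106, adjusted p = 1.52e-08). Its relative Tll1 had the other order, 3.14 above tissue in cultured cells (SE 0.145, adjusted p = 4.74e-08) and 0.66 in neurospheres (SE 0.271, adjusted p = 0.0622). Pcolce, an enhancer of that cleavage, rose by 2.35 and 2.39, while Pcolce2 had differences of -1.36 and -2.98. Adamts3, which cuts the N-terminal ends, was also lower, at -1.98 and -1.85.

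Of 10 receptor and uptake genes, 5 were higher in each culture, 4 were lower in neurospheres and 3 in cultured cells. Beside this, 21.7% of all genes were higher and 21.0% lower in neurospheres, and 20.4% and 22.0% in cultured cells. Itgb1, the beta chain shared by the collagen-binding integrins, rose by 4.26 in cultured cells (SE 0.0811, adjusted p = 2.02e-10) and 3.66 in neurospheres (SE 0.0975, adjusted p = 7.94e-09). Its alpha partners parted, with Itga1 higher by 2.05 and 1.85 and Itga10 at -2.13 and -0.94. The collagen-binding receptor kinases also parted. Ddr2 rose by 1.60 and 1.99, whereas Ddr1 read 10.88, 11.13 and 11.17 in tissue, 12.06, 12.08 and 12.13 in cultured cells and 10.30, 10.19 and 10.02 in neurospheres. Ddr1 was thus 1.03 above tissue in cultured cells (SE 0.0973, adjusted p = 8.36e-06). In neurospheres Ddr1 was lower than in tissue (-0.89, SE 0.114, adjusted p = 1.39e-04) and 1.92 lower than in cultured cells (log2 difference -1.92, SE 0.0928, adjusted p = 3.28e-06). Its probe set is marked as shared, as is that of Adgrg1 below. Without shared probe sets, 24 processing and receptor genes were higher and 6 lower in neurospheres than in tissue, and 29 of the 30 calls were kept. With each probe set on its own, 25 genes were higher and 7 lower there among 31 called. Which gene changed is not given here. Lair1, an inhibitory receptor of leukocytes, was lower at -0.77 and -0.70, and Adgrg1, an adhesion receptor that binds type III collagen, at -1.44 and -1.54. Macrophage markers fell beside Lair1, 7 of 8 in each culture, from summed levels of 11.85 to 12.18 in tissue to 8.95 to 9.48 in cultured cells and 8.69 to 9.20 in neurospheres, and their part in the result was not tested.

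**Figure D4:**
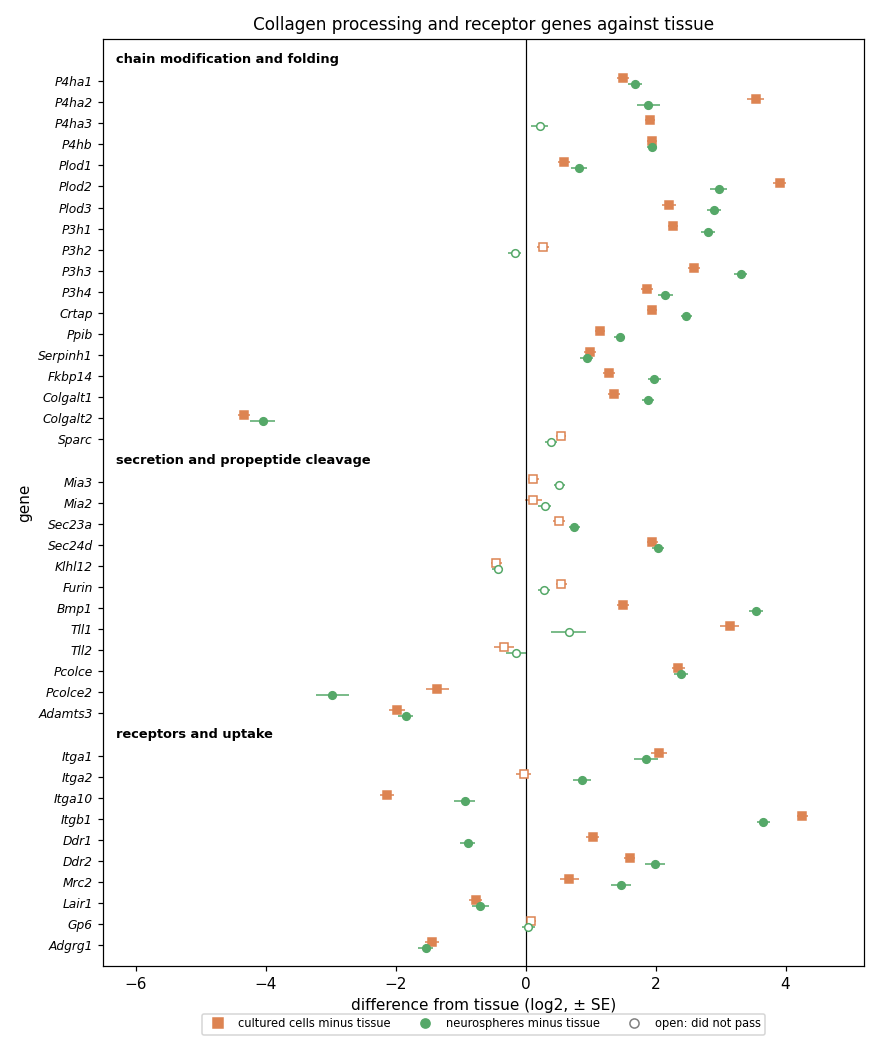
Log2 difference from tissue (horizontal axis, ± SE of the limma fit) for 40 genes of collagen modification, secretion, cleavage and binding, with cultured cells as squares, neurospheres as circles and open symbols where the gene did not pass. Most modification genes lie to the right of 0 in both cultures, Colgalt2 lies at -4.34 and -4.05, and Ddr1 lies on opposite sides at the probe set used.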

How the data were processed

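RNA of 9 samples (3 of auditory nerve tissue, 3 of cultured cells, 3 of neurospheres) was measured on Affymetrix mouse expression arrays after 3′ labelling of 100 ng. The deposited values are log2 signals that the authors made with RMA in Affymetrix Expression Console; the labels also name MAS5, and versions are not given in the sources used here. RMA subtracts background, equalises the arrays and summarises each probe set, so differences are relative to the other probe sets and small signals are compressed.

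Of 45101 probe sets, 64 controls were left out, 34945 named 1 gene, 932 several and 9160 none in the platform annotation. Array medians lay between 6.15 and 6.27. No column was left unused. Each gene took its probe set with the highest mean. limma (version 3.58.1, R 4.3.3) was fitted over 18193 genes for each pair of groups, in place of the t-test of the methods, with Benjamini-Hochberg adjustment over all genes and a fold limit of 1.5. The number of arrays limits the precision. On simulated data with 200 changed genes, 83% of changes of 1 log2 unit were recovered in neurospheres against tissue, 86% in cultured cells against tissue and 85% between the cultures, and 2.72%, 0.53% and 2.13% of calls were false. The simulation drew independent normal noise and changed far fewer genes than were called here. These rates therefore check the procedure and are not error rates of the calls above. Ratios of chains were tested with exact permutation (SciPy 1.17.1).

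The members and lists were chosen with earlier results of these data known. Every collagen gene could be named. Values of each array were given for Col1a1, Col1a2, Col2a1, Col3a1, Col4a1, Col4a2, Col6a1, Col9a1, Col11a1, Col18a1 and, in each class, up to 4 called genes with the largest difference. Of the processing and receptor lists, up to 3 called genes a comparison with the largest difference were named, and those against the rest. The 16 plotted genes, the markers named singly, and Colgalt1, Fkbp14 and Plod3 were chosen after their values were seen. Promoters and positions are those of RefSeq on GRCm38.p6. Protein features were not used here, and no pseudocount was needed on the log2 scale. Fkbp10, Adamts2, Adamts14 and Itga11 of the pathway lists, and 6 genes of the marker lists, were not analysed here. The perineurial and meningeal markers had 2 of 8 higher and 4 lower in each culture, and the 6 osteoblast and osteocyte markers measured had 1 higher and 3 lower in neurospheres and 1 higher and 4 lower in cultured cells. Alternatives were other scalings, other uses of probe sets, a filter on dim genes, other priors, other fold limits, the methods' t-test, a replicate block and leaving out each array.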

Additional observations from a re-analysis of the deposited data

How the results depend on the processing

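The counts of called collagen genes stayed within 1.5 times of 32, 31 and 21 (spheres against nerve, cells against nerve and spheres against cells) under all alternatives but one. With a fold limit of 2, 13 collagen genes and 7 processing and receptor genes (14 at 1.5) were called between the cultures, since the stricter limit drops the smaller differences. Leaving out 1 array gave 30 to 35, 29 to 31 and 17 to 22 collagen genes, and 30 to 31, 29 to 31 and 13 to 14 processing and receptor genes. The replicate numbers share only a number: same-numbered arrays had correlations of their deviations from -0.19 to 0.206, and with the replicate block 32, 31 and 22 collagen genes and 31, 30 and 14 processing and receptor genes were called. Averaging all probe sets of a gene turned Col25a1 in cultured cells against tissue from 0.13 to -1.09, because its second probe set reads -2.31. The methods' t-test after adjustment called 32, 27 and 16 collagen genes. Centring on the more highly expressed genes moved the median of all genes from 0.05 to -0.05 in neurospheres against tissue, and 18 collagen genes were then higher and 14 lower, with Col1a1 (-0.73) and Col12a1 (-0.59) added and Col1a2 (0.55) and Col4a6 (0.53) lost. Without the dimmest 40% of genes, 26 of 29, 24 of 29 and 19 of 29 collagen genes were called, beside 54.4%, 54.5% and 24.2% of all genes. Low signal limits the genes that end near background.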
